A study of Mus musculus with 3 samples.

Results

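The cytosolic ribosomal protein genes, which encode the proteins of the small and large subunits of the cytosolic ribosome, were examined for *Setd1a* peaks in cultured WT quiescent adult neural stem cells (NSCs). Members were taken by name from the protein-coding genes of chromosomes 1 to 19 of the GENCODE M21 annotation. Their symbols follow the Rpl, Rps, Rplp or Rpsa pattern, without the Rps6k kinases. This name rule was chosen with earlier results of these data known, and it gave 88 of the 20807 protein-coding genes on these chromosomes. A gene was counted as having a peak when an interval of the list lay within 1000 bp of any of its annotated transcription start sites (TSSs). By this count 38 of the 88 members had a peak, or 43.2% (95% Wilson interval 33.3 to 53.6%), beside 22.5% of all protein-coding genes. The peaks were carried by 22 of 43 core genes of the large subunit, 13 of 30 core genes of the small subunit and 3 of 8 paralogs, and by none of the 6 copies named as pseudogenes.

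The data were a single list of 6969 *Setd1a* CUT & RUN peaks, an assay in which an antibody-tethered nuclease releases DNA close to the protein. The cultures were derived from the dentate gyrus of Hopx-CreERT2::Setd1afl/fl::H2B-GFP mice aged 7 to 8 weeks, were labelled WT, and were kept until day 5 in medium that lacked EGF and contained BMP4 and FGF2, each at 20 ng/ml. A *Setd1a* antibody was used on 2 independent cultures and IgG on 1, and the list holds the peaks that both *Setd1a* libraries gave. The floxed *Setd1a* alleles and the Hopx-driven inducible Cre were therefore common to all 3 libraries, and there was no *Setd1a*-deficient library among them. The labels call the cells neural progenitor cells, and because no expression was measured in these libraries their identity could not be checked against markers. Each peak is given only by its chromosome, start and end, without a height, so the values below are presence, width and position. The sequencing depth is unknown and the list has no spread between replicates, so no test was run. The intervals cover only the counting error over genes, which are not replicates of a condition. A gene without a peak is a gene absent from this list at an unknown depth.

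Setd1a is the catalytic subunit of a SET1/COMPASS complex that methylates histone H3 at lysine 4, a mark of active promoters that are mostly rich in CpG dinucleotides. Ribosomal protein genes are expressed in all cells, at high levels and in proportion to each other, since each protein is needed in every ribosome. Their mRNAs typically start with a C and a run of pyrimidines, the 5′ terminal oligopyrimidine motif through which mTOR signalling adjusts their translation. Their genes have left many processed copies in the genome, so that part of their sequence is not unique.

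The windows from 60 bases before to 20 bases from the TSS are printed below for the 4 members with the widest peaks, because these are the promoters that the list covered most broadly. They are read 5′ to 3′ on the strand of the gene from GRCm38 (mm10), and capitals mark the bases from the representative TSS of each gene on. The windows lie at chr11:98026864-98026943 on the plus strand for *Rpl19*, chr3:28805376-28805455 on the plus strand for *Rpl22l1*, chr17:33955658-33955737 on the minus strand for *Rps18*, and chr15:5116585-5116664 on the plus strand for *Rpl37*.
Rpl19: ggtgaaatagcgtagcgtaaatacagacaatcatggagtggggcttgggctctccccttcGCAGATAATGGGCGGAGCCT
Rpl22l1: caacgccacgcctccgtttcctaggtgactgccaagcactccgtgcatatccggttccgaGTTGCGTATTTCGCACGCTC
Rps18: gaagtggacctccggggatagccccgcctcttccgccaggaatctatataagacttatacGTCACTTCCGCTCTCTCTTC
Rpl37: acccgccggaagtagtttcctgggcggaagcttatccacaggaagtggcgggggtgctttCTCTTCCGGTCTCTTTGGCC

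The same windows are shown for members without a peak, 1 core gene, 1 paralog and 1 copy named as a pseudogene, taken first in name order to set their sequence beside those above. They lie at chr4:136053374-136053453 for *Rpl11*, chr12:66284382-66284461 for *Rpl10l* and chr9:50344949-50345028 for *Rpl10-ps3*, all on the minus strand.
Rpl11: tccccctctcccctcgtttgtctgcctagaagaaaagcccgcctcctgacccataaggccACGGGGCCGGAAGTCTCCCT
Rpl10l: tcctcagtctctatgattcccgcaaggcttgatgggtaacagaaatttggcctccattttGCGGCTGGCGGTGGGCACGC
Rpl10-ps3: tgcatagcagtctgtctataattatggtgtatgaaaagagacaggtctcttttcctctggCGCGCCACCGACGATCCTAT

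Of the 38 members with a peak, 33 had it directly over a TSS, which is 37.5% of all members (28.1 to 47.9%) beside 17.2% of protein-coding genes. The other peaks lay close to a TSS without reaching it, among them those of *Rps29* at 363 bp, *Rps3a1* at 187 bp, *Rps13* at 158 bp and *Rps6* at 13 bp. The 50 members without a peak were far from this range. Their nearest peak was 3332 bp away for *Rpl36* and 2355453 bp away for *Rps20*, with a median of 40999 bp. No member had its nearest peak between 1000 and 3000 bp from a TSS, and 44 members had none within 10000 bp. The threshold of 1000 bp therefore fell in an empty interval between *Rps29* and *Rpl36*, and the count of 38 was the same at 500, 2000 and 3000 bp.

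**Figure D1:**
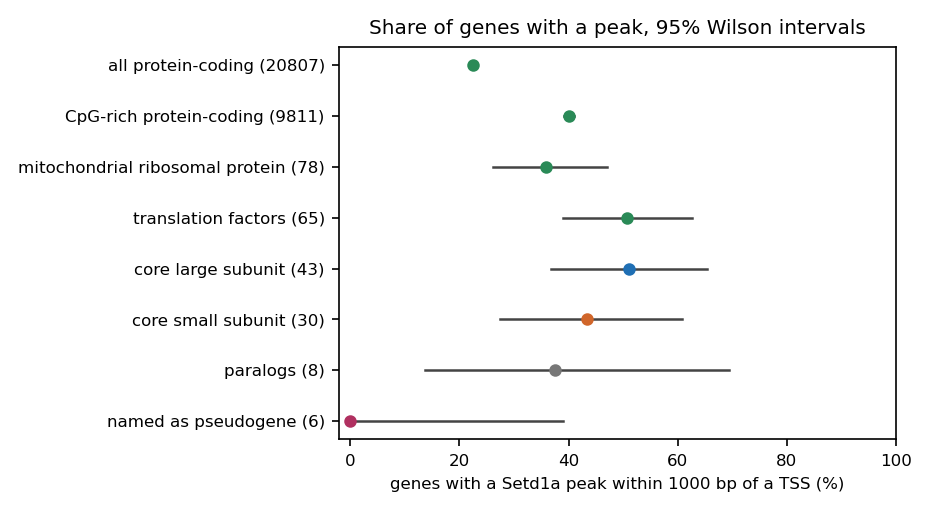
Share of genes with a *Setd1a* peak within 1000 bp of a TSS (percent, horizontal axis) by gene group, with the number of genes in parentheses; points are shares and lines are 95% Wilson intervals, which are narrower than the point for the groups of all and of CpG-rich genes. The core large subunit (51.2%) and core small subunit (43.3%) lie above all protein-coding genes (22.5%), and their intervals take in the share of CpG-rich protein-coding genes (40.1%).

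The share among core genes, those encoding standard proteins of the ribosome, was 47.9% (35 of 73 genes, 36.9 to 59.2%). Most of their promoters are CpG-rich, here defined as a GC content of at least 50% and a ratio of observed to expected CpG of at least 0.6 in the 1000 bp around the representative TSS. This held for 67 of 73 core genes (91.8%) beside 47.3% of protein-coding genes. Among CpG-rich genes, 30 of 67 core ribosomal protein genes had a peak (44.8%, 33.5 to 56.6%) beside 40.1% of the 9811 CpG-rich protein-coding genes, so the share was near that background. The share among the 78 mitochondrial ribosomal protein genes was 35.9% (26.1 to 47.0%) and that among the 65 genes of translation initiation and elongation factors was 50.8% (38.9 to 62.5%). Both intervals overlap that of the core genes, and the differences were not tested.

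The 6 core genes outside the CpG-rich class mostly had a peak. Peaks were present at 5 of 6 (83.3%, 43.6 to 96.99%), namely *Rpl18*, *Rpl23a*, *Rpl41*, *Rps26* and *Rps9*, whereas *Rpl4* had none. Among all 10996 protein-coding genes outside the class the share was 6.81%. These 6 promoters lay close to the limits of the class. The GC content was 46.6% for *Rpl41* and for *Rps26*, 47.6% for *Rpl4*, 48.9% for *Rpl23a* and 49.5% for *Rps9*, and the ratio of observed to expected CpG was 0.553 for *Rpl18*. They were singled out after their values had been seen.

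**Figure D2:**
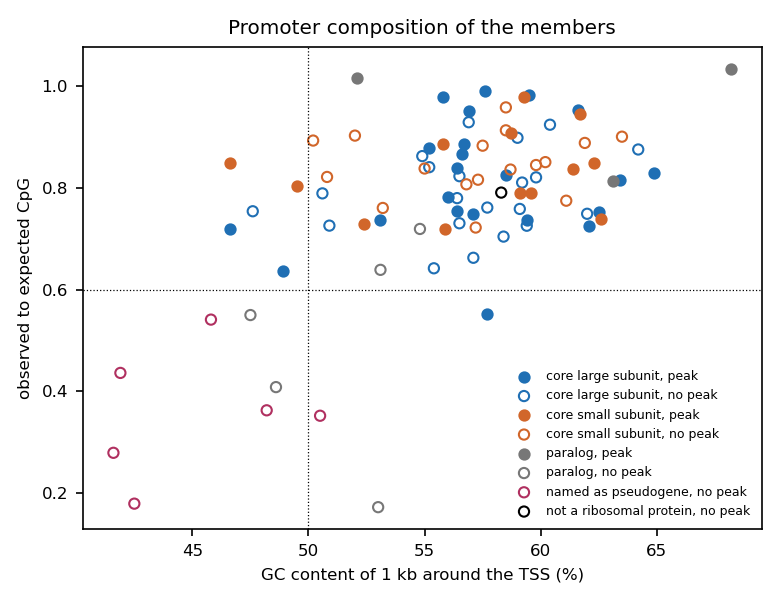
GC content (percent, horizontal axis) and ratio of observed to expected CpG (vertical axis) of the 1000 bp around the representative TSS of each of the 88 members; filled points have a *Setd1a* peak, open points have none, colours mark the gene class and dotted lines the limits of the CpG-rich class. Core genes with and without a peak occupy the same region, and the copies named as pseudogenes lie to the lower left.

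Within the core set, promoter composition was nearly the same with and without a peak. The median GC content was 57.6% in the 35 core genes with a peak and 57.4% in the 38 without. The median ratio of observed to expected CpG was 0.827 and 0.821, respectively. The reads had been mapped uniquely, and the share of 31-bp stretches in the 1000 bp around the TSS that occur once in the genome was 97.4% in the median for core genes with a peak (59.0 to 100%) and 91.8% for those without (80.9 to 100%). Genes of low uniqueness occurred among those with a peak, at 59.0% for *Rps29*, 68.4% for *Rpl24* and 68.5% for *Rpl37a*. The part of mappability in the presence of a peak was not tested. The median gene length was 2905 bp with a peak and 3930 bp without.

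The core genes with a peak in the large subunit included *Rpl7*, *Rpl9*, *Rpl10a*, *Rpl13*, *Rpl15*, *Rpl18*, *Rpl19*, *Rpl21*, *Rpl22*, *Rpl23*, *Rpl23a*, *Rpl24*, *Rpl26*, *Rpl28*, *Rpl34*, *Rpl35a*, *Rpl37*, *Rpl37a*, *Rpl41*, *Rplp1* and *Rplp2*. Those in the small subunit were *Rps3a1*, *Rps6*, *Rps9*, *Rps12*, *Rps13*, *Rps15*, *Rps18*, *Rps19*, *Rps21*, *Rps23*, *Rps25*, *Rps26* and *Rps29*.

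The large subunit genes with a peak thus included *Rplp1* and *Rplp2*, but not *Rplp0*. The products of these 3 genes form the stalk that recruits translation factors to the ribosome. *Rplp1* had a peak of 796 bp that reached from −500 to 295 bp relative to its TSS. *Rplp2* had one of 288 bp, from −98 to 189 bp. The nearest peak to a TSS of *Rplp0* was 5654 bp away. A peak was thus present at 2 of 3 stalk genes (66.7%, 20.8 to 93.9%), beside 47.9% of all core genes and 22.5% of all protein-coding genes. The interval takes in both of these shares. The windows around the 3 start sites are shown to compare promoters of proteins that work in a single complex, with capitals from the representative TSS on. They lie at chr5:115559407-115559486 (plus) for *Rplp0*, chr9:61914523-61914602 (minus) for *Rplp1* and chr7:141447310-141447389 (plus) for *Rplp2*.
Rplp0: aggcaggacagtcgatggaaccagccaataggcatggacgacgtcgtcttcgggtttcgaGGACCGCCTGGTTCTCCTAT
Rplp1: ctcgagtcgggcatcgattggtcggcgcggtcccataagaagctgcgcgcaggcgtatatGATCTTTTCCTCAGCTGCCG
Rplp2: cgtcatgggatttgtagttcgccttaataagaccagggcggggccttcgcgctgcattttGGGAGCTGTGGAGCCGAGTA

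*Rpl5* and *Rpl11*, whose products join 5S rRNA in a particle that also binds Mdm2 and thereby stabilises p53, both lacked a peak. A peak was present at 47.9% of all core genes and 22.5% of all protein-coding genes, and 2 genes are too few for a share to set beside these. The nearest peak was 158930 bp from a TSS of *Rpl5* and 41305 bp from a TSS of *Rpl11*. Their promoters were CpG-rich, with 84.1% of the stretches around the TSS unique for *Rpl5* and 97.7% for *Rpl11*. The window of *Rpl5*, shown beside that of *Rpl11* above as the partner in the particle, lies at chr5:107900442-107900521 on the plus strand.
Rpl5: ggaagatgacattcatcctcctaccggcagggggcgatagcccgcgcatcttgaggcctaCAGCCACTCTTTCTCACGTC

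Proteins around the exit of the peptide tunnel, where chaperones and targeting factors meet the nascent chain, were split. A peak was present at 3 of 6 genes (50%, 18.8 to 81.2%), beside 47.9% of all core genes and 22.5% of all protein-coding genes. *Rpl19*, *Rpl23a* and *Rpl26* had a peak, with widths of 1499, 801 and 552 bp. *Rpl17*, *Rpl31* and *Rpl35* had none, with the nearest peak at 5210, 108747 and 26869 bp. In the head of the small subunit, which holds part of the mRNA channel and contacts the tRNAs, 6 of 14 genes had a peak (42.9%, 21.4 to 67.4%). These were *Rps12*, *Rps15*, *Rps18*, *Rps19*, *Rps25* and *Rps29*, whereas those without included *Rps3*, *Rps10*, *Rps16*, *Rps20*, *Rps27a* and *Rps28*. *Rps6*, the substrate of the S6 kinases, had a peak of 536 bp that began 93 bp downstream of its representative TSS.

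Genes mutated in Diamond-Blackfan anaemia, an inherited failure of red cell production caused by loss of a single copy of a ribosomal protein gene, were on both sides. Of 19 such members, 7 had a peak (36.8%, 19.1 to 59.0%), beside 47.9% of all core genes and 22.5% of all protein-coding genes. The 7 were *Rpl15*, *Rpl18*, *Rpl26*, *Rpl35a*, *Rps19*, *Rps26* and *Rps29*. The interval takes in the share of the core genes. *Rps19*, the gene most often mutated in this disease, had a peak of 606 bp from −207 to 398 bp relative to its TSS. The other 12 genes, among them *Rpl5*, *Rpl11*, *Rpl27*, *Rpl31*, *Rpl35*, *Rps7*, *Rps10*, *Rps15a*, *Rps24*, *Rps27* and *Rps28*, were absent from the list. The core genes without a peak outside the lists already named included *Rpl3*, *Rpl4*, *Rpl6*, *Rpl7a*, *Rpl8*, *Rpl12*, *Rpl13a*, *Rpl14*, *Rpl27a*, *Rpl29*, *Rpl30*, *Rpl32*, *Rpl36* and *Rpl38* in the large subunit, and *Rps2*, *Rps14* and *Rpsa* in the small subunit.

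The name rule also took genes that are no standard part of the ribosome. Among the paralogs, *Rpl22l1*, *Rpl36al* and *Rps27l* had a peak, of 1128, 275 and 548 bp. These are relatives of *Rpl22*, *Rpl36a* and *Rps27*. *Rpl22* had a peak of 391 bp, and *Rps27* had none within 17980 bp. No peak was listed at *Rpl3l*, the relative of *Rpl3* expressed in muscle, at *Rpl10l* and *Rpl39l*, which are expressed in testis, or at *Rpl7l1* and *Rps27rt*. *Rps27rt* had its nearest peak at 3770 bp and *Rpl10l* at 1210157 bp. *Rps19bp1*, which encodes a nucleolar binding partner of Rps19 and no ribosomal protein, also had none.

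The 6 members named as pseudogenes, *Rpl9-ps1*, *Rpl9-ps6*, *Rpl10-ps3*, *Rpl36-ps4*, *Rpl36a-ps1* and *Rps12-ps3*, had no peak, a count that allows a share of up to 50%. Their start regions had a median GC content of 44.2% and a median ratio of observed to expected CpG of 0.357, and none was CpG-rich. A median of 55.6% of their stretches was unique, from 47.4 to 94.0%. Among all protein-coding genes without a CpG-rich promoter 6.81% had a peak, so a count of 0 of 6 is near that background. The same name pattern fits 257 annotated pseudogenes outside the rule, and 0 of these had a peak, which allows a share of up to 1.17%. No uniqueness was computed for these 257, and its part in their absence was not tested. The share over all other annotated pseudogenes was not taken, so this count has no background of its own.

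The peaks at ribosomal protein genes had a median width of 582.5 bp (quartiles 405 and 678 bp, n = 38), beside 526 bp (365 and 761 bp) for the 4270 peaks within 1000 bp of a protein-coding TSS. Of the 38 peaks, 23 were wider than that median. The median was 620 bp for the 22 peaks of the large subunit and 536 bp for the 13 of the small subunit. Of the 38 peaks, 3 were at least 1000 bp wide (7.89%), beside 10.4% of the peaks at protein-coding TSSs.

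The widest peak was at *Rpl19*, a protein of the tunnel exit region. It extended over 1499 bp on chromosome 11 (98026312 to 98027810), from −612 to 886 bp relative to the representative TSS, and was wider than 98.3% of the peaks at protein-coding TSSs. The *Rpl22l1* peak of 1128 bp (chromosome 3, 28804836 to 28805963) and the *Rps18* peak of 1091 bp (chromosome 17, 33955133 to 33956223) followed. The *Rps18* peak was centred at −1 bp from its TSS, and lay also within 1000 bp of a TSS of *Vps52*, a neighbouring gene. *Rpl37* and *Rpl34* came next, with peaks of 905 bp (chromosome 15, 5116372 to 5117276) and 810 bp (chromosome 3, 130729850 to 130730659).

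The 5 narrowest peaks had 239 to 288 bp. They were those of *Rps29* (239 bp, chromosome 12, 69159549 to 69159787), *Rpl35a* (264 bp, chromosome 16, 33056249 to 33056512), *Rpl36al* (275 bp, chromosome 12, 69183792 to 69184066), *Rpl24* (278 bp, chromosome 16, 55966242 to 55966519) and *Rplp2* (288 bp, chromosome 7, 141447272 to 141447559). The *Rps29* peak stood apart in other respects as well. It had a GC content of 34.7%, beside a median of 59.3% over the members' peaks, it was the farthest from its gene, and the nearest TSS of any gene was that of *Gm47295*.

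**Figure D3:**
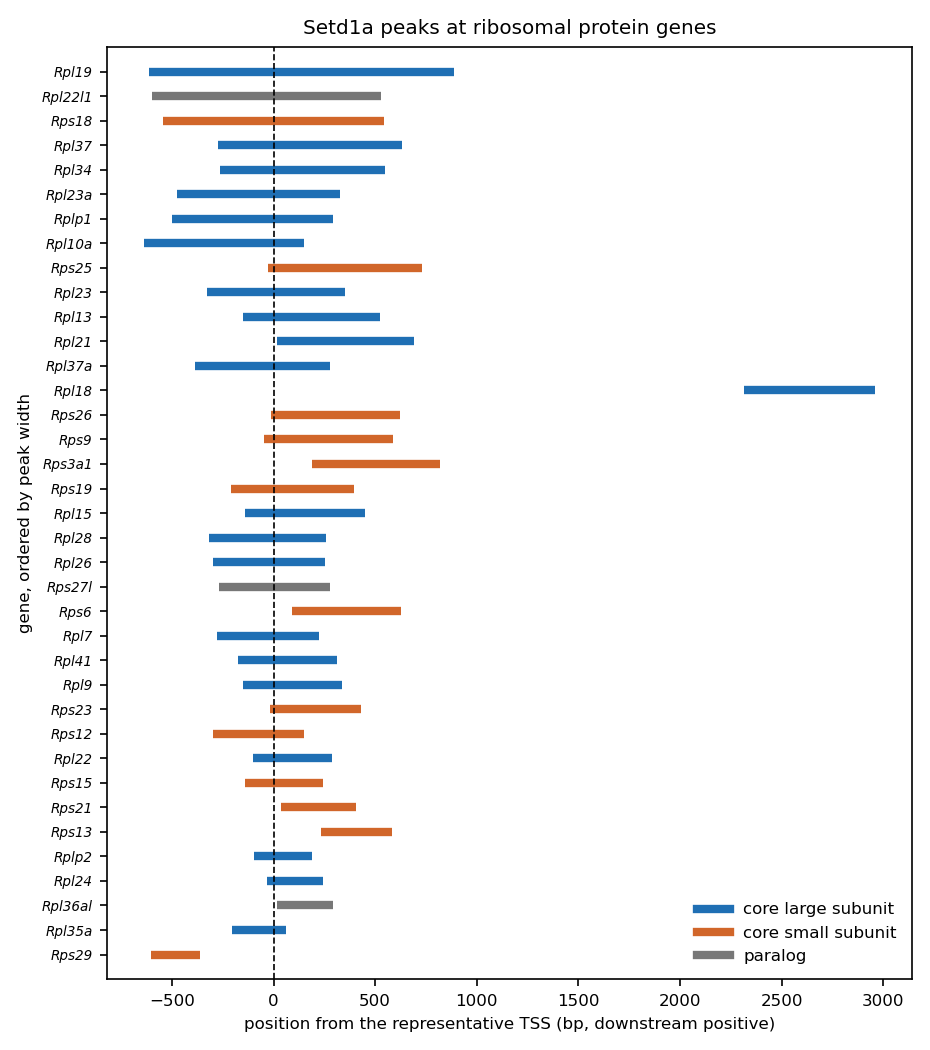
Extent of the *Setd1a* peak nearest to a TSS for 37 of the 38 members that have one, relative to the representative TSS of the gene (bp, downstream positive, dashed line at 0), ordered from the widest peak at the top to the narrowest; colours mark the gene class. Of the 37 bars, 29 cross the dashed line, *Rpl19* is the widest at 1499 bp, and *Rpl18* lies 2314 to 2962 bp downstream of its representative TSS.

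The peaks lay over or near the start sites. A representative TSS was taken for each gene as that of its best supported principal coding transcript. The peak covered this position in 29 of 38 members. The median of the peak midpoints was 94.5 bp downstream (quartiles −29.9 and 202 bp), with 25 midpoints downstream and 13 upstream, beside 7.5 bp (−204 and 202.5 bp) over all protein-coding genes with a peak. Measured from the annotated TSS nearest to each peak, the median midpoint of the members was −2.5 bp, so the offset depended on which start site was used. The median edges lay at −190 and 345 bp from the representative TSS.

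*Rpl18* was the only member with 2 peaks within 1000 bp of its start sites. They covered 379 bp (chromosome 7, 45714975 to 45715353) and 649 bp (45717771 to 45718419). The first lay just upstream of the representative TSS at 45715457, and the second covered other annotated start sites of the gene, 2314 to 2962 bp downstream of it. The second was also near a TSS of *Sphk2*.

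**Figure D4:**
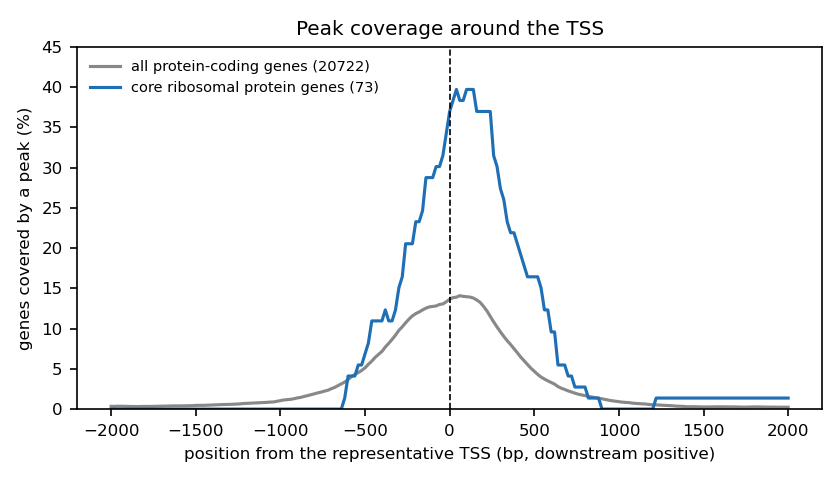
Percent of genes covered by a *Setd1a* peak (vertical axis) at each position from 2000 bp upstream to 2000 bp downstream of the representative TSS (horizontal axis, steps of 20 bp), for the 73 core ribosomal protein genes and for all 20722 protein-coding genes with a representative TSS. Coverage of the core genes is highest at 39.7%, 40 bp downstream of the TSS, and that of all genes at 14.1%, 60 bp downstream. CpG-rich genes are not drawn apart.

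Along the promoter, coverage of the core genes rose from 6.85% at 500 bp upstream to 37.0% at the TSS, and was 16.4% at 500 bp downstream. Over all protein-coding genes the values at these positions were 5.12, 13.6 and 4.70%. A profile over CpG-rich genes alone was not taken. Within that class 44.8% of core genes and 40.1% of all protein-coding genes had a peak within 1000 bp of a TSS. At 1000 bp on either side 0 of the 73 core genes were covered, beside 1.06% of all genes upstream and 0.927% downstream. The low step beyond that in the core profile is a single peak of 1003 bp, 1216 to 2218 bp downstream of the *Rpl41* TSS, which covers a TSS of the neighbouring gene *Zc3h10*.

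Of the 38 peaks, 8 also lay within 1000 bp of a TSS of another protein-coding gene (21.1%), beside 17.2% of all peaks at protein-coding TSSs. The pairs were *Rpl7* with *Rdh10*, *Rpl9* with *Lias*, *Rpl15* with *Nkiras1*, *Rpl18* with *Sphk2*, *Rpl35a* with *Iqcg*, *Rpl36al* with *Mgat2*, *Rps18* with *Vps52* and *Rps25* with *Trappc4*. At these genes the peak cannot be given to one of the neighbours from its position. For 4 peaks the nearest TSS belonged to another gene, where TSSs at the same distance from the peak edge were ranked by distance from its midpoint. It was *Gm47295* for *Rps29*, *Gm28037* for *Rpl24*, *Mir3091* for *Rps21* and *Trappc4* for *Rps25*. The peaks of *Rpl24*, *Rps21* and *Rps25* also covered a TSS of their own gene, so for these the midpoint decided. When each peak was given to the gene of its nearest TSS only, 34 members had a peak (38.6%) beside 18.3% of all protein-coding genes.

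Many ribosomal protein genes carry small nucleolar RNAs (snoRNAs), guides of rRNA modification, in their introns. Among core genes, 10 of 28 hosts had a peak (35.7%, 20.7 to 54.2%) and 25 of 45 other core genes had one (55.6%, 41.2 to 69.1%). Among hosts with a CpG-rich promoter, 9 of 26 core genes had a peak (34.6%, 19.4 to 53.8%) beside 49.1% of all protein-coding hosts of this class (84 of 171). Over all protein-coding snoRNA hosts, CpG-rich or not, the share was 36.9% (90 of 244). The hosts with a peak included *Rpl37*, *Rpl23a* and *Rps12*, and those without included *Rpl4* and *Rpl13a*. The intervals of the core hosts and the other core genes overlap, and the difference was not tested.

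Sequence motifs were searched as exact matches on both strands from 250 bases before to 50 bases after the representative TSS. CCGGAAG, the core of the site of ETS factors such as GABP, occurred in 24 of 73 core promoters (32.9%) beside 11.4% of all protein-coding promoters. It was found in 10 of 35 core promoters with a peak and in 14 of 38 without, which is 28.6% and 36.8%. The *Rpl37* window printed above holds it, and so does that of *Rpl11*, which has no peak. AAGATGGC, the core of the YY1 site, occurred in 5 of 73 (6.85%, beside 3.10%). CACGTG, the E-box bound by Myc, was present in 9 of 73 (12.3%, beside 7.77%). GGGCGG, the site of Sp1, was present in 35 of 73 (47.9%, beside 46.2%). Since most core promoters are CpG-rich, the shares were also taken within that class, over 67 core and 9811 protein-coding promoters. GGGCGG was then less frequent in core promoters, at 50.7% (39.1 to 62.3%) beside 73.5%. CCGGAAG was found in 34.3% (24.1 to 46.3%) beside 19.1%. CACGTG was found in 13.4% beside 11.1% and AAGATGGC in 4.48% beside 4.87%. A match is a description of letters and not a measured site.

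TATAAA, the TATA box, was present in 8 of 73 core promoters (10.96%) beside 12.7% of all promoters. All 8 promoters were CpG-rich, and within that class the share was 11.9% of core promoters (6.18 to 21.8%) beside 5.71% of all. None of these 8 genes had a peak, a count that allows a share of up to 37.5%. They included *Rpl3*, *Rpl30*, *Rplp0*, *Rps2*, *Rps14*, *Rps20* and *Rps28*. Over all protein-coding genes with this match 9.92% had a peak (261 of 2630), and among those with a CpG-rich promoter 32.9% did (184 of 560). The paralog *Rpl22l1* held the match and had a peak. A TATA box in the strict sense lies a short distance upstream of the start site. On the strand of the gene the matches began at −51 bp from the TSS of *Rpl30*, but 17 bp downstream of that of *Rplp0* and *Rps2*, 37 bp downstream of that of *Rps28* and 44 bp downstream of that of *Rpl22l1*, and the remaining 4 core genes held the match on the opposite strand only. This pattern was chosen after the values were seen, out of 5 motifs. The positions of the matches rest on annotated start sites, which are not exact to the base.

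The promoters of *Rpl19* and *Rplp0* illustrate both outcomes at genes of the large subunit and are printed from 280 bases before to 20 bases from the first annotated TSS, with the matches in capitals. That of *Rpl19*, the gene with the widest peak, lies at chr11:98026430-98026729 on the plus strand. It holds CCGGAAG on the opposite strand, seen as CTTCCGG, at −39 bp from the TSS, and CACGTG at −19 bp. The motif counts above were taken around the representative TSS, which differs from the first annotated TSS for *Rpl19*. In those counts *Rpl19* stands with GGGCGG and CACGTG, and without CCGGAAG. The promoter of *Rplp0*, without a peak, lies at chr5:115559187-115559486 on the plus strand and holds GGGCGG at −190 bp from the TSS.
Rpl19: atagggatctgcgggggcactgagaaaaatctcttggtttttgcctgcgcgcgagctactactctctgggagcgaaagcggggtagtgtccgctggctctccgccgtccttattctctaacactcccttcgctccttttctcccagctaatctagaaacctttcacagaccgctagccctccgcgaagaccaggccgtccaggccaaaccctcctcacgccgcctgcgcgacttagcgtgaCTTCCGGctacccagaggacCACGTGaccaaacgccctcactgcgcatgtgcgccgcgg
Rplp0: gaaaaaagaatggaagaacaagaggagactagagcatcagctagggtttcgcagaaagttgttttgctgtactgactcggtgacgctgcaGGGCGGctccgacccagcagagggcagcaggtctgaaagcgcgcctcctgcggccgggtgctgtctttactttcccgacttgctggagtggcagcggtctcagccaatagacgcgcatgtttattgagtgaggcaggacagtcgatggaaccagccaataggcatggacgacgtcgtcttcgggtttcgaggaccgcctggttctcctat

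A pyrimidine tract at the TSS, counted as a C at the first base followed by at least 4 pyrimidines, was present in 9 of 88 members (10.2%) beside 2.28% of protein-coding genes and 2.202% of those with a CpG-rich promoter. The core genes with a tract and a peak included *Rpl37*, *Rpl37a* and *Rps21*, with tracts of 6 or 7 bases. Those with a tract and no peak were *Rpl4*, *Rpl32*, *Rpl36* and *Rps24*, where the tract reached 17 bases in *Rps24* and 14 in *Rpl32*. A tract was present in 4 of 35 core genes with a peak and in 4 of 38 without. The *Rpl37* window printed above shows a tract of 7 bases at the start of the capitals, and that of *Rpl11* shows none. A C stood at the representative TSS in 25 of 73 core genes (34.2%, beside 17.7%). The annotated start sites are not exact to the base, and the count of members with a tract rose to 41 of 88 when it could begin within 10 bp of the TSS, beside 31.1% of all protein-coding genes.

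Members with a peak were spread over 16 of the 19 chromosomes. Chromosome 7, which holds 14 members, had 6 with a peak, chromosome 17 had 2 of 9 and chromosome 11 had 4 of 8. All 4 members on chromosome 10, *Rpl41*, *Rps12*, *Rps15* and *Rps26*, had a peak (51.0 to 100%). The share of all protein-coding genes with a peak was not taken by chromosome, so these counts have no background of their own. The peaks of the members had a median ratio of observed to expected CpG of 0.895, beside 0.814 over peaks at protein-coding TSSs, and a median GC content of 59.3% beside 63.5%.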

How the data were processed

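Setd1a CUT & RUN was performed at day 5 on WT adult NSCs kept in quiescence medium. Per the submitters' processing notes and the methods, the authors trimmed reads with Trimmomatic 0.32, mapped them uniquely to mm10 with Bowtie2 2.1.0, filtered low mapping quality with SAMtools 0.1.18, and called peaks with MACS2 2.2.8 at default parameters. For each peak shared by both replicates the authors deposited its boundaries in bp, read here as 1-based. The methods state that the peaks of both replicates were intersected. Whether IgG served as the control is not given in the sources used here. All columns were matched, and 0 were left out.

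Peaks were compared with GENCODE M21 TSSs on GRCm38 using Python 3.11.15, numpy 2.4.6, pandas 2.3.3, scipy 1.17.1 and pysam 0.24.0, and plotted with matplotlib 3.10.9. Distances run from the nearer peak edge. The representative TSS was that of the basic protein-coding transcript with the best APPRIS rank, then transcript support level, then length. Shares have 95% Wilson intervals, and a count of 0 was limited at 3 counts. The distance code was tested on simulated data. Alternatives covered distance, start sites, peak assignment, peak width, gene set and tract definition.

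Members and lists were chosen with earlier results of these data known. Named genes were all members without a peak, the 5 widest and 5 narrowest peaks, members with 2 peaks, the 3 members farthest from their peak, the role lists and the paralogs. Some of these genes are counted but not reported by name here. Other genes named were chosen after their values were seen. Sequences were read from GRCm38. That of Rpl12, next in name order without a peak, was not printed, and those of the stalk, Rpl5 and the promoters of Rpl19 and Rplp0 were added to the rule.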

Additional observations from a re-analysis of the deposited data

How the results depend on the processing

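The count of 38 ribosomal protein genes with a peak fell to 24 (27.3%, beside 12.8% of all protein-coding genes) when only peaks of at least 500 bp were used. Under the other alternatives run on the name rule of chromosomes 1 to 19 it was between 33 and 38, with 33 for peaks over a TSS (beside 17.2% of all protein-coding genes) and 33 for peaks of at least 300 bp (37.5% beside 19.9%). With chromosome X it was 40 of 92 (43.5% beside 21.6%). The median width was 606 bp for peaks over a TSS and 598.5 bp after peaks with gaps of at most 1000 bp were merged. The median midpoint changed from 94.5 bp downstream to −2.5 bp when taken from the nearest transcript TSS, by the choice of start site itself. The count of 9 members with a pyrimidine tract was 41 when the tract could begin within 10 bp of the TSS, beside 31.1% of all protein-coding genes. It was 5 when the C had to be followed by at least 6 pyrimidines, beside 1.12% of all protein-coding genes. When any transcript TSS counted it was 34, a count without a share over all genes beside it. No paired analysis was possible because both replicates were merged into 1 list, and for the same reason no replicate could be left out. The unknown depth limits every statement on genes without a peak.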

Other observations

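Ribosomal protein genes outside the rule were looked up in the same list. On chromosome X, *Rpl10* had a peak of 1050 bp and *Rpl36a* a peak of 294 bp, both over a TSS, whereas *Rpl39* and *Rps4x* had none. Peaks were rare on this chromosome, at 23 of 948 protein-coding genes (2.43%). *Fau*, which encodes a ribosomal protein fused to a ubiquitin-like protein, had a peak of 361 bp. *Rack1*, which encodes a scaffold protein on the small subunit, had none.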
